A study of Mus musculus with 2 samples.

Results

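A set of 33 genes of cell adhesion was followed through the cell types of the Nf1-OPG mouse optic nerve: 16 integrin alpha subunits, 8 integrin beta subunits and 9 partners. The partners were Icam1, Icam2, Vcam1, Selplg, Selp, Sele, Alcam, Cd6 and S1pr1. The 33 members were taken by gene symbol from the 32285 genes of the count tables, and all of them were found. RNA was measured in single cells with a chemistry that reads the 5′ end of transcripts, in 1 library from vancomycin-treated mice and 1 library labelled control. All mice were of the Nf1-OPG genotype (Nf1flox/neo; GFAP-Cre), in which 1 copy of Nf1 is disrupted by a neomycin cassette in every cell and the other is removed by Cre in neuroglial progenitors. These mice form low-grade gliomas of the optic nerve. The mice received vancomycin, an antibiotic, or PBS between 6 and 12 weeks of age; the control label itself names no vehicle. Tissue was taken at 12 weeks and 10 mice were pooled, so no animal can be told from another, and the protocol text describes both optic nerve and meningeal dura. The series concerns intestinal bacteria and the entry of CD8+ T cells into the glioma, and the questions here were which adhesion genes each leukocyte type carried, which ligands stood on the surrounding cells, and in which of these genes the libraries differed.

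Integrins are receptors made of 1 alpha and 1 beta chain that hold cells to other cells or to matrix, and each chain can have more than 1 partner. Leukocytes first roll on vessels through selectins and their ligand PSGL-1, encoded by Selplg, then stop when the alpha L beta 2 integrin LFA-1 binds ICAM-1 or the alpha 4 beta 1 integrin VLA-4 binds VCAM-1. Inside a tissue, other integrins bind matrix or epithelial ligands, and the receptor S1PR1 draws lymphocytes back towards lymph and blood. In the nervous system, integrins of the alpha v group on glia and microglia also release active transforming growth factor beta from its latent form.

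Counts are UMIs (unique molecular identifiers, each standing for 1 captured RNA molecule), of which 144451114 lay in 16596 vancomycin barcodes and 25609899 in 4272 control barcodes. Filtering kept 15726 vancomycin cells with a median of 6970 UMIs and 4108 control cells with a median of 4870.5. Cell types are named for the marker gate a cell passed, with no member among the markers, and 12015 and 3235 cells passed the gate of a single type. Cells that passed more than 1 gate (10.3% and 3.36%) or none (13.3% and 17.9%) were left out. The same barcode sequence occurred in both libraries 100 times, 2.34% of the smaller one. The control library, labelled optic nerve like the other, had 0 gated oligodendrocytes among 4108 kept cells, which allows a share of up to 0.0730%, beside 3616 in the vancomycin library. Free RNA of oligodendrocytes can reach other droplets. The myelin gene Mbp stood at 834 CPM in vancomycin CD8 T cells and 104 CPM in control ones, beside 7014 CPM in oligodendrocytes. The 9 oligodendrocyte marker genes summed to 37.9 and 0 CPM in the same T cells, beside 16570 CPM in oligodendrocytes. How much of the Mbp RNA in T cells came from oligodendrocytes was not tested. With 1 library per group no test was possible, and every interval is a 95% interval for counting error only. Levels are in CPM, the UMIs of a gene per 1000000 UMIs summed over the cells of the type in that library; values in pairs are vancomycin first, then control. A 5′ library counts each molecule once, so levels were not divided by gene length.

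**Figure D1:**
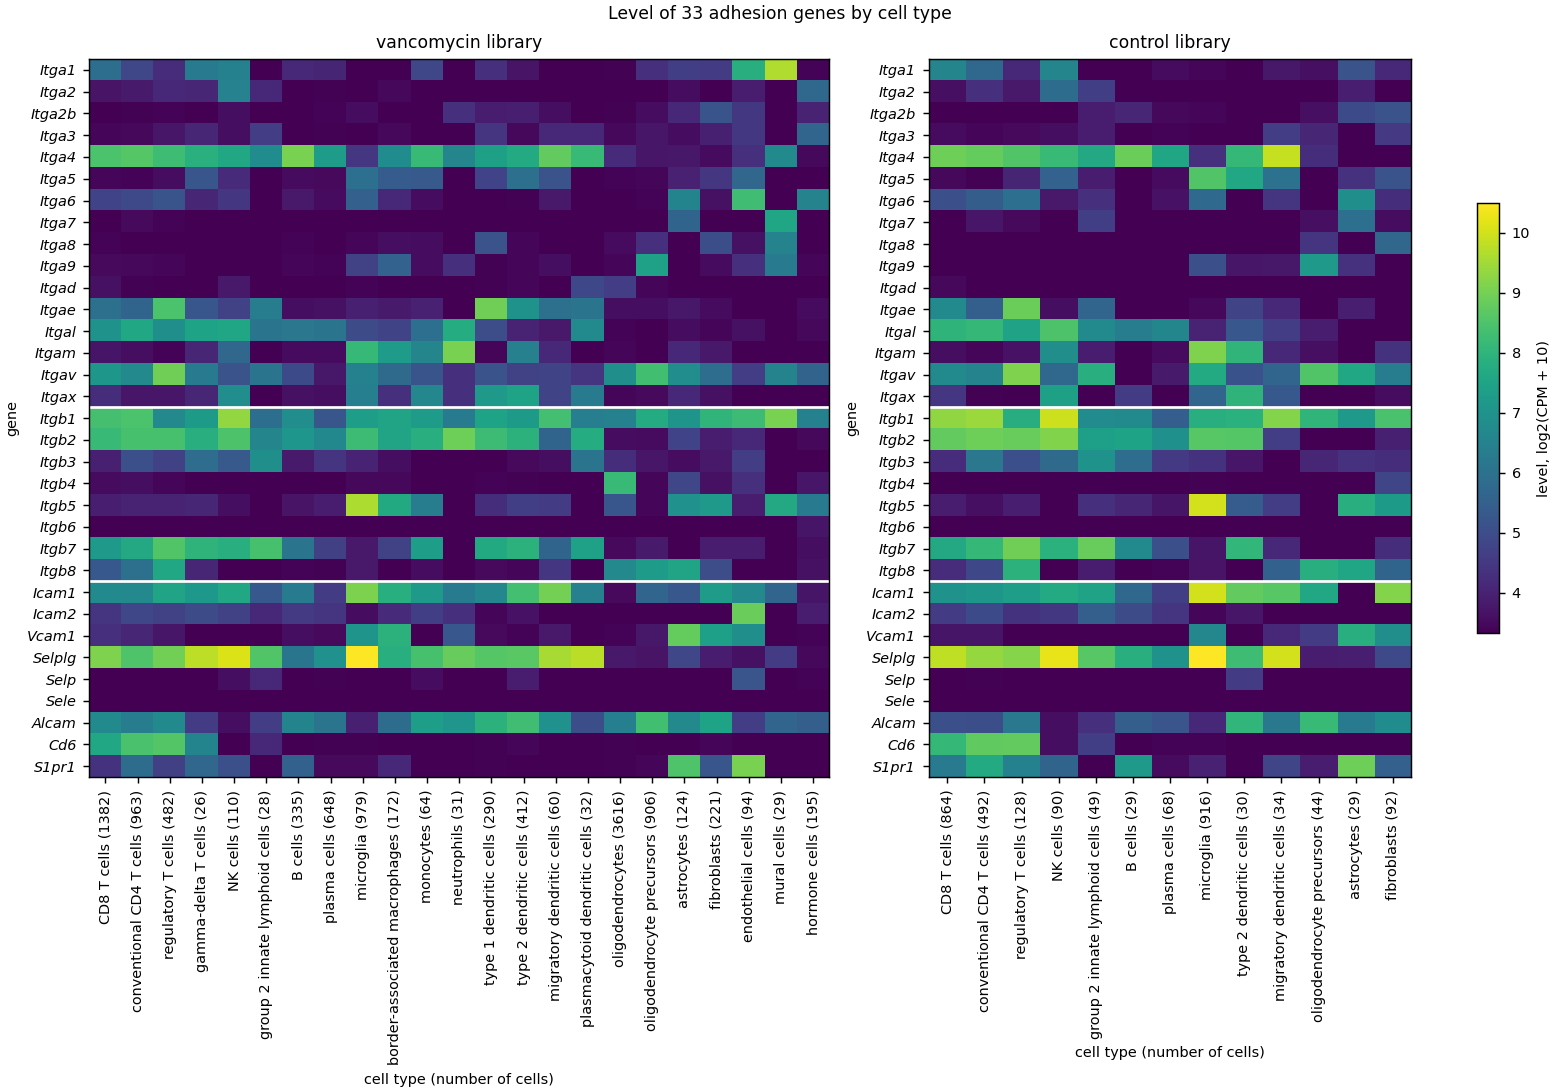
Level of the 33 members, as log2(CPM + 10), in each cell type with at least 20 gated cells in the vancomycin library (left) and the control library (right), with cell numbers in brackets and white lines between alpha subunits, beta subunits and partners. Itga4, Itgb1 and Itgb2 are spread over leukocytes, while Itgb4, Itga9, Itga7 and Icam2 each stand high in 1 or 2 types.

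Among alpha subunits, Itga4 was the most abundant in most lymphocytes, and regulatory T cells, microglia and type 1 dendritic cells each had another leader. Shares of alpha or beta UMIs are taken over the 16 alpha or 8 beta members, so Itga10, Itga11 and Itgb2l are not counted in them. Itga4, whose product pairs with beta 1 to bind VCAM-1 or with beta 7 to bind MAdCAM-1, made up 46.7% (interval 45.5 to 48.0) of alpha subunit UMIs in vancomycin CD8 T cells and 45.3% (44.0 to 46.6) in control ones. Its share was 50.4% and 48.1% in conventional CD4 T cells, 64.9% and 64.0% in plasma cells, and 83.5% in vancomycin B cells. Migratory dendritic cells, which carry antigen towards lymph nodes, had the Itga4 shares 75.2% and 83.0%. By level, Itga4 stood at 523 CPM in vancomycin B cells and 341 CPM in vancomycin CD8 T cells, against 12.2 CPM in vancomycin microglia.

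The promoters of Itga4 and of Itgb7 are shown because these genes encode the chains of the gut-homing integrin alpha 4 beta 7. Itgb7 did not follow the lymphoid types: with vancomycin it stood at 235 CPM in type 2 dendritic cells and 15.5 CPM in plasma cells. The sequences run from 250 bases before to 50 bases after the RefSeq start (GRCm38.p6), 5′ to 3′ on the gene's strand, and RefSeq promoters were matched for 20 of the 33 members. Itga4 lies on the plus strand (chr2:79255176-79255475) and Itgb7 on the minus strand (chr15:102231886-102232185). Capitals mark CACCC on either strand, a motif of the Krüppel-like factor type, and in Itgb7 also GAGGAA on the reverse strand, a motif of the ETS type.
Itga4: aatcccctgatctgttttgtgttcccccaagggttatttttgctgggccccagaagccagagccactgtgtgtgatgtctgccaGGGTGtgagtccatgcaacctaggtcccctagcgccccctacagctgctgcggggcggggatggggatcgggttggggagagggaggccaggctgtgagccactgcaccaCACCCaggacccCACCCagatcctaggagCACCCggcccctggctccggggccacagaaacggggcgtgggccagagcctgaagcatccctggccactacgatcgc
Itgb7: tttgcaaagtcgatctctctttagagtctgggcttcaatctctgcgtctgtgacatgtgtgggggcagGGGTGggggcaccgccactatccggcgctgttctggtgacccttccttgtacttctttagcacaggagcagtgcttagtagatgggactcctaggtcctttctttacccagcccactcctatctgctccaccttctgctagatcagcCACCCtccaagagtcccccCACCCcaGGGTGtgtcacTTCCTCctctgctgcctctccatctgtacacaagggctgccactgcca
CACCC occurred 3 times forward and 1 time in reverse in Itga4, and 2 times each way in Itgb7. Of 32851 promoters of this length, 57.5% held CACCC and 28.3% held GAGGAA on either strand, so both motifs are common, and a match is a description only.

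Regulatory T cells differed from CD8 and conventional CD4 T cells in the integrin genes they carried. Itgav, whose product pairs with beta 8 to activate latent transforming growth factor beta, led their alpha UMIs at 37.3% (35.5 to 39.1) and 33.7% (31.0 to 36.4). Itgae, which encodes the CD103 chain that binds E-cadherin when paired with beta 7, followed at 26.9% and 28.8%. In CD8 T cells the share of Itgav was 17.6% and 9.39%, and that of Itgae 7.30% and 9.41%. The matching beta chains were also high in regulatory T cells: Itgb7 made up 36.7% and 34.6% of beta UMIs and Itgb8 18.6% and 16.7%. There were 3.93 Itgb7 UMIs per Itgb1 UMI (3.37 to 4.60) in vancomycin regulatory T cells and 2.31 (1.91 to 2.79) in control ones, against 0.418 and 0.309 in CD8 T cells. This ratio was 1.75 (0.983 to 3.20) in the 26 vancomycin gamma-delta T cells, from 35 Itgb7 and 20 Itgb1 UMIs. By level, Itgav and Itgb8 stood at 480.2 and 187 CPM with vancomycin and at 543 and 234 CPM in the control.

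In natural killer (NK) cells no alpha gene held more than 31.3% of the alpha UMIs. Itga4 stood at 25.0% and 25.2%, Itgal at 24.2% and 31.3%, and Itgax came after both at 14.0% and 14.1%. Itga2, the chain known as CD49b in the collagen receptor alpha 2 beta 1, stood at 81.7 CPM with vancomycin and 47.7 CPM in the control, and at 3.04 and 2.30 CPM in CD8 T cells. Itga1, the alpha chain of another collagen receptor and a gene of tissue-resident lymphocytes, was at 79.7 and 87.1 CPM in NK cells and at 50.3 and 86.3 CPM in CD8 T cells. Group 2 innate lymphoid cells, with 28 and 49 cells, had Itgb7 as 57.5% and 53.6% of beta UMIs.

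Among vancomycin myeloid cells, microglia, border-associated macrophages and neutrophils were led by Itgam rather than Itga4, while other myeloid types were not. Itgam, which encodes the alpha chain of complement receptor 3, was 47.5% of alpha UMIs in vancomycin microglia (46.0 to 49.0) and 43.9% in control microglia (42.8 to 45.0). It was 35.3% in border-associated macrophages and 61.1% in the 31 neutrophils of the vancomycin library. The 64 vancomycin monocytes instead had 144 UMIs of Itga4, beside 45 of Itgam, 47 of Itgax and 27 of Itgal. Itgae led in type 1 dendritic cells, at 53.8% of alpha UMIs and 485 CPM, and the 6 control cells of that type stood at 807 CPM. In type 2 dendritic cells of the vancomycin library, Itga4 (30.8%), Itgax (25.8%) and Itgae (18.0%) were closer together. Itgad, the least common alpha partner of beta 2, had 614 UMIs in gated vancomycin cells, of which 572 lay in oligodendrocytes.

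**Figure D2:**
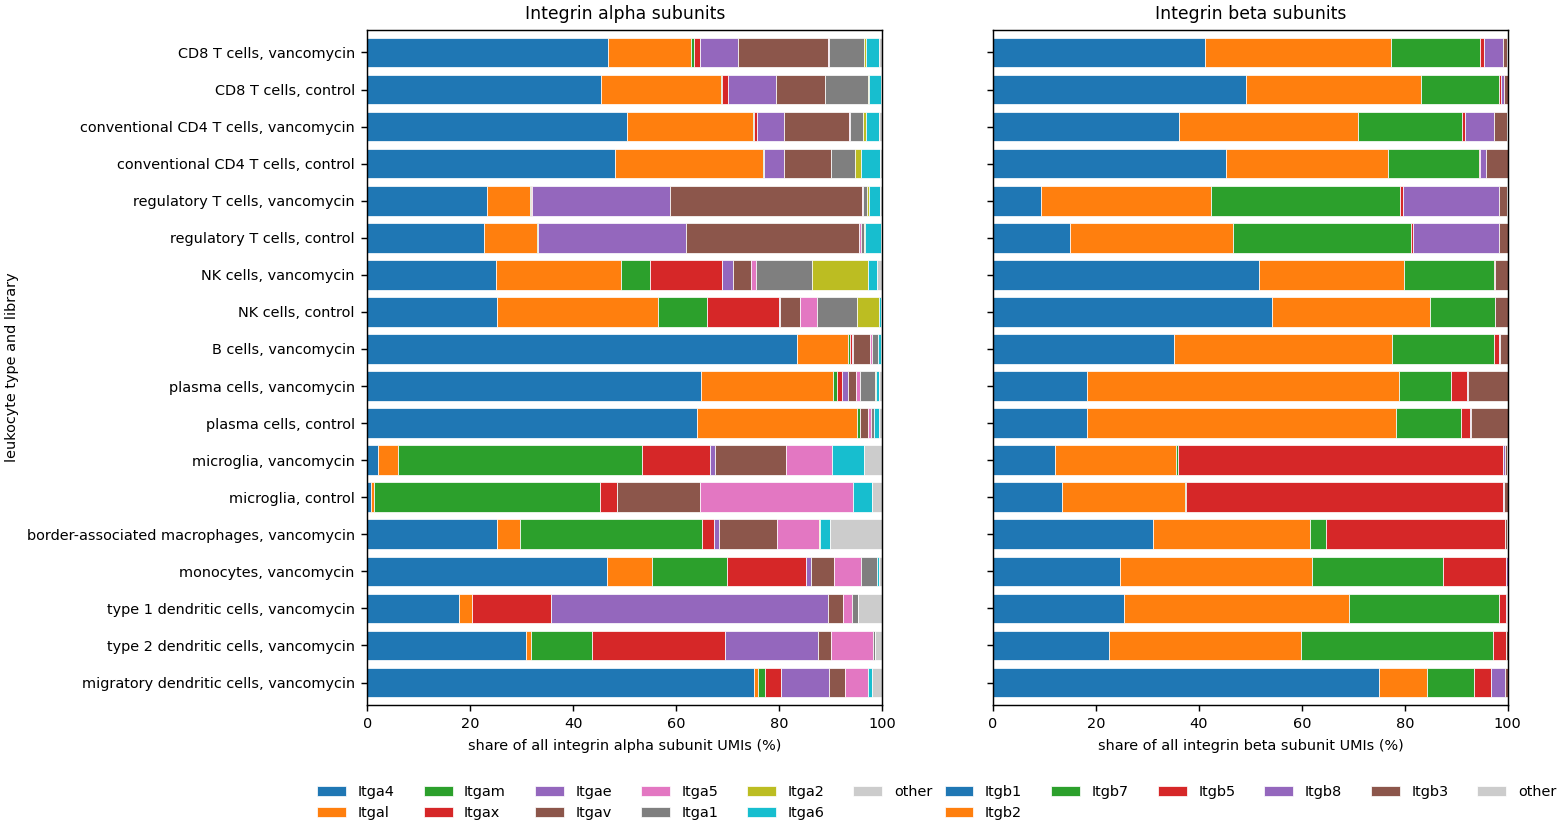
Share of each integrin gene among the UMIs of the 16 alpha (left) or 8 beta (right) members, in percent. Bars are 1 per type and library, for leukocyte types with at least 50 gated cells. Regulatory T cells stand apart from CD8 and conventional CD4 T cells by Itgav, Itgae, Itgb7 and Itgb8. Microglia stand apart from lymphocytes by Itgam and Itgb5, which border-associated macrophages also carry.

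Among beta subunits, Itgb1 and Itgb2 together led in most leukocytes. Itgb1, which pairs with many alpha chains, was 41.3% of beta UMIs in CD8 T cells with vancomycin and 49.2% in the control, and Itgb2, the beta chain of LFA-1, was 36.1% and 33.9%. Plasma cells had more Itgb2 (60.5% and 60.0%) than Itgb1 (18.3% and 18.2%). Microglia were led by Itgb5, a partner of alpha v, at 63.1% and 61.6%, or 783 and 1011 CPM. Border-associated macrophages also carried Itgb5, at 194 CPM with vancomycin and 272 CPM in the 10 control cells. Any T, NK, B, plasma or dendritic cell type with at least 20 cells had at most 32.3 CPM of it. Itgb3, which also pairs with alpha v, was highest, among types with at least 20 cells, in group 2 innate lymphoid cells (109 and 116 CPM).

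Glia and stromal cells had their own subunits. Itgb4, whose only known partner is the alpha 6 chain in the laminin receptor of epithelial hemidesmosomes, made up 56.1% of beta UMIs in vancomycin oligodendrocytes (273.5 CPM), while Itga6 had 5 UMIs there (0.127 CPM). There were 0.000464 Itga6 UMIs per Itgb4 UMI in oligodendrocytes, beside 45 Itga6 and 10 Itgb4 UMIs in vancomycin astrocytes. Oligodendrocyte alpha UMIs were 76.9% Itgav and their next beta gene was Itgb8 (19.3%). Oligodendrocyte precursors combined Itgav (61.0% and 67.5%) with Itga9, a receptor chain for tenascin C (32.1% and 24.8%), and Itgb1 with Itgb8. Astrocytes had Itgav, Itga6 and Itga7, the last a laminin receptor chain at 39.6 and 51.6 CPM, and were again rich in Itgb8 (174 and 180.4 CPM).

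Endothelial cells, measured in the vancomycin library only (94 cells, beside 1 control cell), had Itga6 as 48.2% and Itga1 as 34.2% of alpha UMIs. Mural cells of the vessel wall (29 cells) had Itga1 at 61.1% and Itga7 at 13.7%. In fibroblasts Itgav led at 34.1% and 34.2%, with Itga8 at 15.9% and 20.2% and Itgb1 at 59.0% and 60.5% of beta UMIs. Hormone cells of a pituitary kind (195 and 5 cells) held all 8 gated UMIs of Itgb6 and the highest Itga3 level (40.5 CPM). Itga2b, the platelet chain, was highest in fibroblasts among types with at least 20 cells (26.2 and 25.5 CPM).

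ICAM-1, the ligand of LFA-1 and of complement receptor 3, had its gene Icam1 in leukocytes and stroma alike. With vancomycin it stood at 537 CPM in microglia, 503 CPM in migratory dendritic cells, 320.4 CPM in type 2 dendritic cells, 142 CPM in fibroblasts and 93.7 CPM in endothelial cells. In the control it stood at 1026 CPM in microglia, 566 CPM in fibroblasts, 430.2 CPM in type 2 dendritic cells and 385 CPM in migratory dendritic cells. Vancomycin oligodendrocytes had 54 UMIs of Icam1, a level of 1.37 CPM. Icam2, a second LFA-1 ligand, was by contrast an endothelial gene here, at 451 CPM in endothelial cells and at most 35.2 CPM in any other type with at least 20 cells.

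The Icam1 promoter is shown because the gene was the 1 member that reached a 2-fold library difference in fibroblasts (log2 ratio -1.92). It lies on the plus strand (chr9:21015690-21015989, GRCm38.p6, RefSeq), and capitals mark GGAAATTCC, a motif of the NF-kappaB type, and TATAAA, the TATA box.
Icam1: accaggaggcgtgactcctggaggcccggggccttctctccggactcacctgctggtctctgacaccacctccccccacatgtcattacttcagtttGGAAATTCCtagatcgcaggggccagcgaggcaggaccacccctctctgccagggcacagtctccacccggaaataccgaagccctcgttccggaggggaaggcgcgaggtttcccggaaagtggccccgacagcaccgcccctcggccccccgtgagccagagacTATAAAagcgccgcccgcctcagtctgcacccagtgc
Each motif occurred 1 time forward, and the matches do not overlap; CACCC occurred 3 times and is not in capitals here. On either strand, GGAAATTCC was in 0.317% and TATAAA in 13.6% of the 32851 promoters. Neither Itga4 nor Itgb7 held either motif in its window. No other member was looked up for these motifs, and a match is a description only.

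VCAM-1, the ligand of VLA-4, came mainly from glia, macrophages and stroma. Vcam1 stood at 434 CPM in vancomycin astrocytes and 222 CPM in the 29 control astrocytes, at 237 CPM in border-associated macrophages, and at 157 and 107 CPM in fibroblasts. It stood at 122 and 90.9 CPM in microglia and at 108 CPM (44 UMIs) in vancomycin endothelial cells. In oligodendrocytes it was nearly absent (20 UMIs, 0.508 CPM).

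ALCAM, the ligand of the T cell receptor CD6, had a broad gene pattern, while Cd6, of the 7 types with at least 50 cells in both libraries, stood above 10 CPM in the 3 T cell types only. Alcam was highest in oligodendrocyte precursors (314 and 282 CPM) and type 2 dendritic cells (304 and 254.5 CPM) and stood at 74.9 CPM in oligodendrocytes. NK cells had 1.99 and 2.08 CPM of it. Cd6 ranged from 186 CPM in CD8 T cells to 372 CPM in regulatory T cells with vancomycin and from 267 to 430.2 CPM in the control, and stood at no more than 2.08 CPM in NK cells, plasma cells, microglia and fibroblasts.

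The selectin genes were close to absent, and their ligand was abundant. Sele had 3 and 1 UMIs in all barcodes of the vancomycin and control libraries, and none in a gated cell. Selp, an endothelial and platelet selectin, had 54 and 18 UMIs in all, including 11 in the 94 vancomycin endothelial cells (27.1 CPM) and 22 in type 2 dendritic cells (4.95 CPM). Selplg was the highest member in microglia (1443 and 1472 CPM) and NK cells (1114 and 1220.0 CPM) and stood at no more than 18.9 CPM in vancomycin astrocytes, oligodendrocytes, their precursors, fibroblasts, endothelial and mural cells. S1pr1, the receptor for sphingosine 1-phosphate, was highest in vancomycin endothelial cells (525 CPM) and in astrocytes (361 and 469 CPM), and among lymphocytes of the control in conventional CD4 T cells (201 CPM) and B cells (134 CPM).

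**Figure D3:**
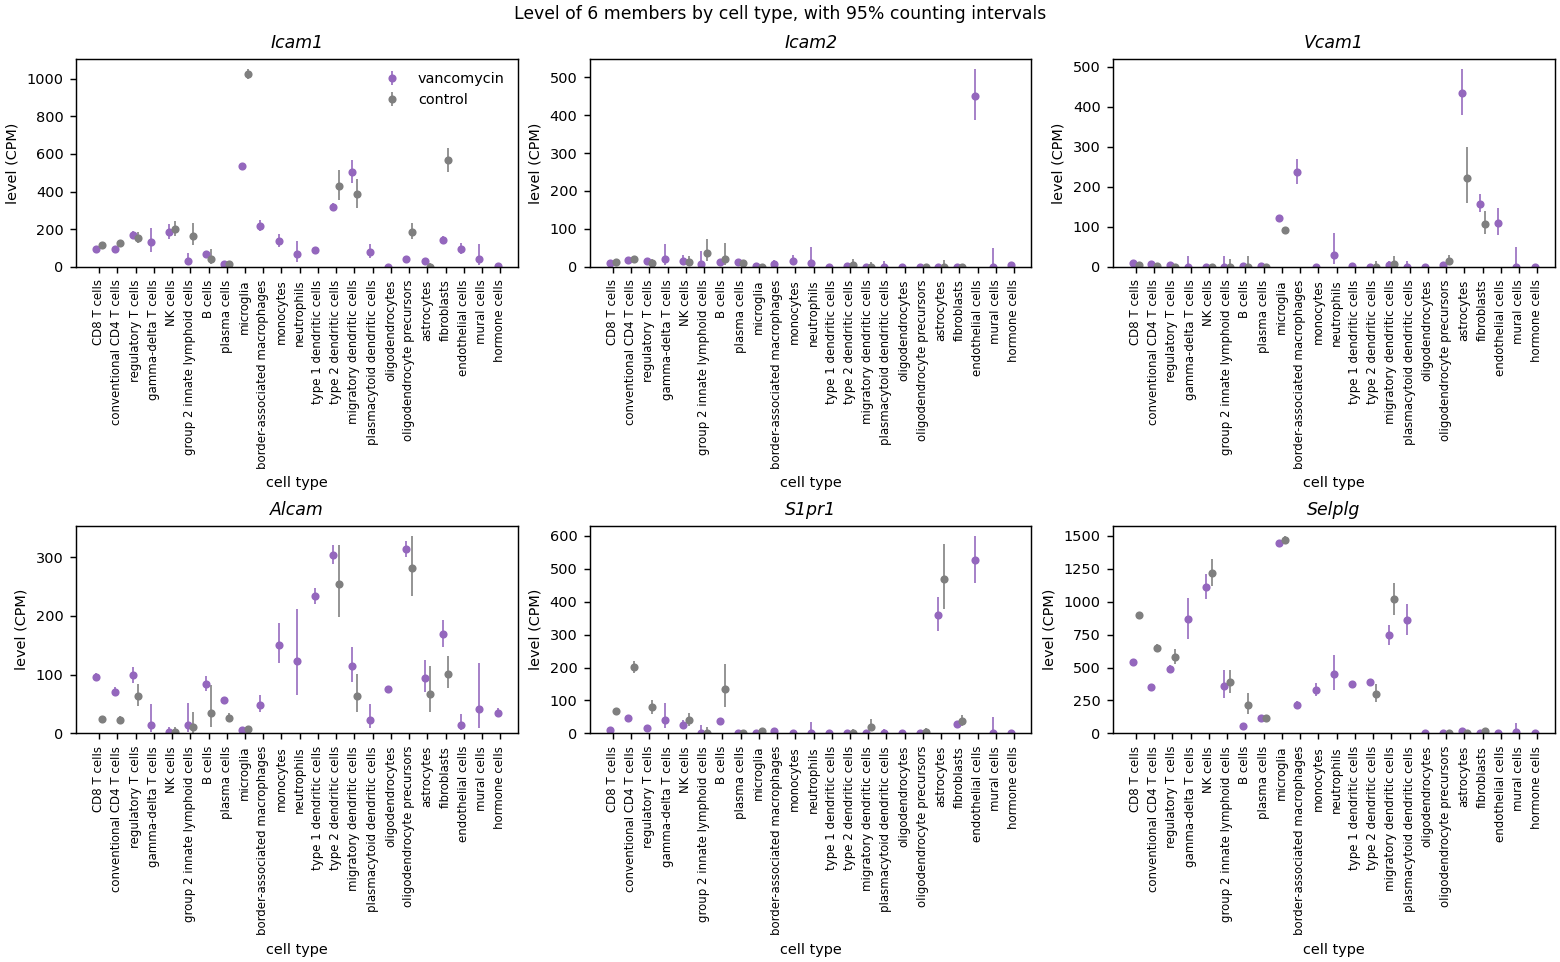
Level in CPM of 6 partner genes by cell type with at least 20 gated cells, vancomycin in purple and control in grey, with bars for the 95% counting interval. Icam2 stands out in endothelial cells and Vcam1 in astrocytes, while control microglia (1026 CPM) and control fibroblasts (566 CPM) have the highest Icam1.

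The libraries were compared in the 7 types with at least 50 gated cells in each, for members with at least 50 UMIs over both. Ratios are vancomycin over control. For log2 ratios 10 CPM were first added to both levels, and a value of 1 or more, or of -1 or less, was taken as a 2-fold difference. Of the 33 members 25 were measured in at least 1 type, which gave 103 member-by-type ratios, of which 79 were below 0 and 24 above. These ratios repeat the same members over types of the same 2 libraries, so they are not independent. The share of all genes below 0 was not counted, and the medians of all genes are given by type below. Itga2b, Itga3, Itga7, Itgad, Itgb4, Itgb6, Selp and Sele were measured in none. A 2-fold difference was reached by 13 ratios, 4 of them higher and 9 lower with vancomycin, and 7 more lay just under it (0.9 to 1 in size). The ratios of Itgb1 lay below 0 in all 7 types (from -1.09 to -0.22), as did those of Itgb2 in all 6 types that measured it (from -0.66 to -0.26), and those of Vcam1 lay above 0 in all 3 (0.38 to 0.56).

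In CD8 T cells (1382 and 864 cells), Alcam and Itgb8 were at least 2-fold higher and S1pr1 at least 2-fold lower. That is 2 of 20 measured members higher, beside 2.57% of all measured genes, and 1 lower, beside 1.58% (4.15% either way). The median log2 ratio of the members was -0.39, and that of all 10071 measured genes -0.01. Conventional CD4 T cells (963 and 492 cells) also had Alcam and Itgb8 higher (2 of 17 members, beside 3.26% of genes), and S1pr1 and Itgb3 lower (2, beside 1.83%, or 5.1% either way), with medians of -0.45 for members and 0.03 for genes. Regulatory T cells (482 and 128 cells) had 0 of 15 members higher, beside 3.38% of genes, and Itgb1 and S1pr1 lower, beside 1.96% (5.34% either way), with medians of -0.33 and 0.00. Of the 15 members measured in all 3 T cell types, 10 were below 0 in each, 1 (Alcam) above 0 in each, and Icam1, Itgae, Itgav and Itgb8 were mixed. The same counts over all genes were not taken.

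S1pr1 (ENSMUSG00000045092, mm10 chromosome 3, 115710433 to 115715072, minus strand) was the member with the largest difference in T cells. CD8 T cells had 88 UMIs, or 10.7 CPM, in the vancomycin library and 351 UMIs, or 67.3 CPM, in the control one (ratio 0.159, interval 0.125 to 0.202, log2 ratio -1.90). Conventional CD4 T cells stood at 47.7 and 201 CPM (ratio 0.237, 0.2003 to 0.280), and regulatory T cells at 15.5 and 78.9 CPM (ratio 0.196, 0.125 to 0.303). All 3 T cell types were thus lower in the vancomycin library, with intervals that touched or overlapped, while fibroblasts stood at 27.8 and 36.4 CPM and their interval (0.429 to 1.40) included 1. Cells with at least 1 S1pr1 UMI made up 4.78% of vancomycin and 20.7% of control CD8 T cells. After thinning each cell to 1000 UMIs, which left out 3 and 16 cells, these shares were 1.67% and 5.66%. In microglia, as background, S1pr1 was found in 1.12% and 3.06% of cells, or 0.104% and 0.694% after thinning, at median depths of 6718 and 6063 UMIs beside 4991.5 and 5602 in CD8 T cells. The 2-fold difference of regulatory T cells rests on 34 and 60 UMIs and was lost after thinning, at a log2 ratio of -0.63, beside -1.42 in CD8 and -2.05 in conventional CD4 T cells. B cells (335 and 29) also stood at 37.2 and 134 CPM of S1pr1.

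Alcam (ENSMUSG00000022636, chromosome 16, 52248996 to 52454074, minus strand) showed the opposite order. CD8 T cells stood at 95.3 CPM with vancomycin and 23.8 CPM in the control (ratio 4.004, 3.31 to 4.88), and conventional CD4 T cells at 70.7 and 22.8 CPM (3.10, 2.33 to 4.18). Regulatory T cells stood at 99.1 and 63.2 CPM (1.57, 1.14 to 2.19), plasma cells at 57.5 and 26.8 CPM (2.15, 1.61 to 2.92) and fibroblasts at 169 and 102 CPM (1.65, 1.23 to 2.26). Microglia went the other way within error (5.63 and 7.78 CPM, interval 0.467 to 1.12), and NK cells had 1 UMI in each library. Cells with an Alcam UMI were 23.6% and 10.2% of CD8 T cells, or 5.58% and 1.89% after thinning, beside 2.25% and 4.04% of microglia. Oligodendrocytes, found in the vancomycin library alone, also carry Alcam. If all Mbp RNA in CD8 T cells came with oligodendrocyte RNA in its own proportions, it would bring 8.91 CPM of Alcam, 11.2 CPM of Itgb8 and 32.5 CPM of Itgb4, where 95.3, 29.5 and 1.58 CPM were measured. Scaled instead by the 9 oligodendrocyte markers, such RNA would bring 0.171 CPM of Alcam, 0.215 CPM of Itgb8 and 0.625 CPM of Itgb4.

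Itgb8 (ENSMUSG00000025321, chromosome 12, 119158022 to 119238802, minus strand) stood at 29.5 and 8.82 CPM in CD8 T cells (ratio 3.34, 2.43 to 4.68) and at 53.0 and 19.3 CPM in conventional CD4 T cells (2.75, 2.01 to 3.82). In regulatory T cells, where it was highest, it stood at 187 and 234 CPM (0.798, 0.668 to 0.957). Fibroblasts stood at 22.3 and 40.0 CPM of it (0.556, 0.307 to 1.02) and microglia at 4.19 and 2.98 CPM (1.41, 0.765 to 2.66), both with intervals that included 1. Differences between types were not tested. After thinning to 1000 UMIs the log2 ratio of Itgb8 was 0.96 in CD8 T cells and 0.40 in conventional CD4 T cells, and that of Alcam in conventional CD4 T cells was 0.95, all under the 2-fold threshold. Its partner Itgav stood at 129 and 98.4 CPM in CD8 T cells (1.31, 1.18 to 1.46) and at 480.2 and 543 CPM in regulatory T cells (0.884, 0.788 to 0.993). Itgb8 was at 94.0 CPM in oligodendrocytes. Their summed markers stood at 37.9 CPM in vancomycin CD8 T cells (9 of 9 markers with a UMI) and 0 CPM in control ones (0 of 9). Oligodendrocyte RNA would bring 0.215 CPM of Itgb8 to vancomycin CD8 T cells when scaled by these markers, and 11.2 CPM when scaled by Mbp. Its part in the Itgb8 result was not tested beyond these values.

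The remaining T cell integrins were mostly lower with vancomycin by less than 2-fold. Itgb1 stood at 321 and 621.5 CPM in CD8 T cells (ratio 0.516, 0.490 to 0.544), at 345 and 679.9 CPM in conventional CD4 T cells (0.507, 0.472 to 0.544), and at 93.7 and 210.5 CPM in regulatory T cells (0.445, 0.360 to 0.551), only the last past 2-fold on the log2 scale with 10 CPM added (-1.09). That difference in regulatory T cells was under 2-fold after thinning (-0.78), less the other compared types' median (-0.51) and less the median of genes of like span (-0.95). Itgal, the alpha chain of LFA-1, stood at 118 and 246 CPM in CD8 T cells, just short of the threshold (log2 ratio -0.996, ratio 0.481, 0.442 to 0.523). Itgb3, a partner of alpha v, stood at 24.0 and 62.6 CPM in conventional CD4 T cells (0.383, 0.295 to 0.495). Itga4 differed less, with ratios of 0.719 in CD8, 0.862 in conventional CD4 and 0.822 in regulatory T cells. Selplg stood at 540.5 and 898 CPM in CD8 T cells (0.602) and at 356 and 648 CPM in conventional CD4 T cells (0.549), and Cd6 at 186 and 267 CPM in CD8 T cells (0.696). Summed over the 16 alpha members, CD8 T cells held 730.4 and 1048 CPM, and over the 8 beta members 778 and 1264 CPM.

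NK cells (110 and 90 cells) had 0 of 11 measured members at least 2-fold higher, beside 3.92% of genes, and 1 lower, beside 5.56% (9.48% either way), with medians of -0.56 for members and -0.09 for genes. The lower gene was Itgam, at 41.8 CPM (21 UMIs) and 106 CPM (51 UMIs), with the ratio 0.395 (0.226 to 0.669). With cells thinned to 1000 UMIs the log2 ratio was -0.91, under 2-fold. Less the median of the other compared types, here microglia alone, it was -0.18. Itgal stood at 179 and 351 CPM (0.511, 0.391 to 0.664), and Itga2 went the other way (1.71, 1.003 to 2.99). The 3 markers of T cells summed to 1.99 CPM (1 with a UMI) and 24.9 CPM (3 with a UMI) in these cells, and those of oligodendrocytes to 65.7 CPM (6 of 9 markers) and 8.30 CPM (1 of 9), and their part in the result was not tested. Microglia, with Itgam at 272 and 546 CPM, were 6.23% and 22.3% of kept cells. The part of microglial RNA in the Itgam result of NK cells was not tested. Plasma cells (648 and 68 cells) had 0 of 13 members at least 2-fold different in either direction, beside 2.59% of genes higher and 0.925% lower (3.52% either way). Their medians were -0.06 for members and 0.13 for genes, and Itga1, at 94 and 3 UMIs, had the ratio 4.01 with the wide interval 1.33 to 19.8.

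**Figure D4:**
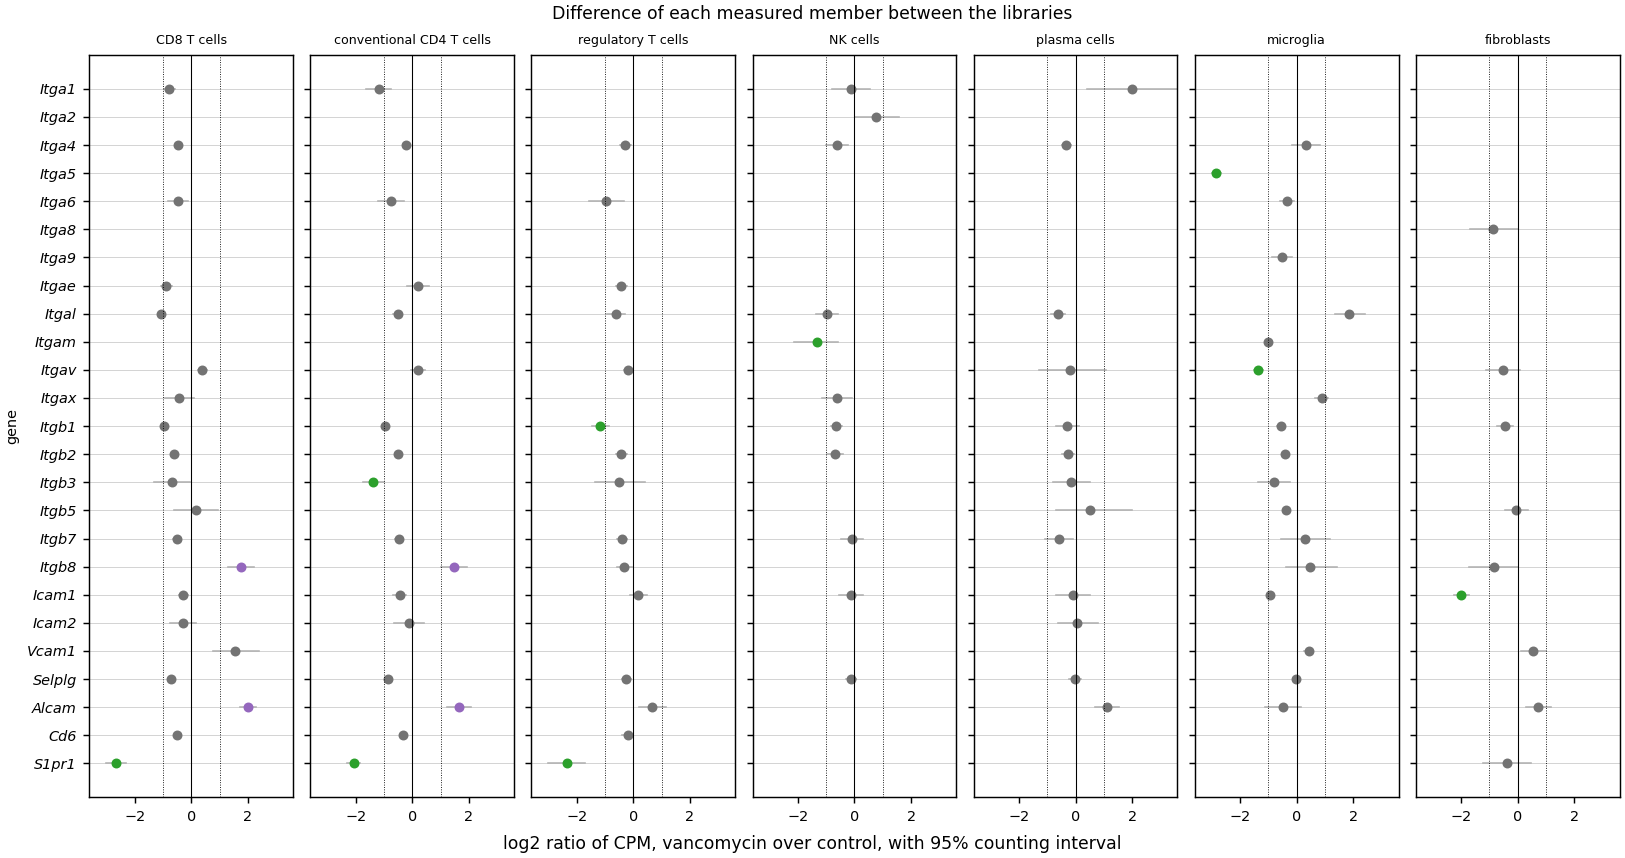
Ratio of CPM, vancomycin over control, on a log2 scale for each measured member in the 7 compared types, with bars for the 95% counting interval and dotted lines at 2-fold. Coloured points passed the 2-fold threshold after adding 10 CPM (purple higher, green lower), and most points lie left of 0, with S1pr1 and Alcam at opposite ends in CD8 and conventional CD4 T cells; the interval of Itga1 in plasma cells runs past the axis.

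In microglia (979 and 916 cells) Itga5 and Itgav were at least 2-fold lower with vancomycin. Itga5 (ENSMUSG00000000555, chromosome 15, 103344286 to 103366763), the alpha chain of the fibronectin receptor, stood at 51.8 CPM (396 UMIs) and 368 CPM (2225 UMIs), for the ratio 0.141 (0.126 to 0.157) and the log2 ratio -2.61. Itgav stood at 79.0 and 201 CPM (0.394, 0.356 to 0.434). These were 2 of 18 measured members at least 2-fold lower, beside 2.23% of genes, and 0 were higher, beside 2.58% (4.8% either way), with medians of -0.31 and 0.01. Cells with an Itga5 UMI were 24.2% and 51.1% of microglia, and 4.35% and 21.2% after thinning (13 and 51 cells left out), beside 0.507% and 0.579% of CD8 T cells. The libraries thus differed in Itga5 by more than counting error, with and without thinning.

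Several other microglial members lay near the threshold. Itgam stood at 272 and 546 CPM (ratio 0.498, log2 ratio -0.98) and Icam1 at 537 and 1026 CPM (0.523, -0.92). Itgax, the CD11c chain, was higher with vancomycin at 74.8 and 40.6 CPM (1.85, 1.59 to 2.15), and Itgal at 21.7 and 5.96 CPM (3.64, 2.53 to 5.38), a log2 ratio of 0.99. As T cells carry Itgal, their markers were read in the same cells, and Cd3e, Cd3d and Cd3g summed to 1.18 CPM with vancomycin and 3.81 CPM in the control; their part in the Itgal result was not tested. There were 3.63 Itgam UMIs per Itgax UMI (3.31 to 3.99) in vancomycin microglia and 13.5 (11.8 to 15.4) in control microglia. Itga5 was 9.05% of alpha UMIs with vancomycin and 29.6% in the control, whereas Selplg stood at 1443 and 1472 CPM (0.981, 0.953 to 1.01).

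Fibroblasts (221 and 92 cells) had 1 of 9 measured members at least 2-fold lower, beside 2.78% of genes, and 0 higher, beside 2.76% (5.54% either way), with medians of -0.43 and 0.04. That gene was Icam1 (ENSMUSG00000037405, chromosome 9, 21015985 to 21028817), at 142 CPM (179 UMIs) with vancomycin and 566 CPM (311 UMIs) in the control (ratio 0.252, 0.208 to 0.303), found in 39.4% and 54.3% of cells. Its promoter is printed above, and no link between a motif and this difference was tested. Vcam1 went the other way, at 157 and 107 CPM (1.47, 1.09 to 1.997), so that there were 0.904 Icam1 UMIs per Vcam1 UMI (0.734 to 1.11) in vancomycin fibroblasts and 5.27 (3.98 to 7.09) in control ones. Microglial markers summed to 1796 CPM (6 of 8) and 1571 CPM (5 of 8) in these cells, a list that includes Sparc, which fibroblasts express, and Gpr34 and Fcrls had no UMI in either library; the part of microglial RNA in the Icam1 result was not tested.

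Types with fewer cells in the control are given side by side. Astrocytes (124 and 29 cells) stood at 434 and 222 CPM of Vcam1 and at 361 and 469 CPM of S1pr1. Oligodendrocyte precursors (906 and 44 cells) stood at 40.4 and 187 CPM of Icam1 and at 314 and 282 CPM of Alcam. Type 2 dendritic cells (412 and 30 cells) stood at 77.4 and 247 CPM of Itgam, at 52.7 and 186 CPM of Itga5 and at 117 and 17.9 CPM of Itgae. In migratory dendritic cells (60 and 34 cells) Itga4 stood at 429.8 and 922 CPM.

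Genes around the members were read from 4 of 5 lists fixed for them (84 genes found in all 5), to be read against the shares of all genes given above. Integrin activation and adapter genes had 20 measured in CD8 T cells, with 0 at least 2-fold different in either direction and a median of -0.08. There Skap1, an adapter of T cells, stood at 532 and 455 CPM, and Cytip, a cytohesin partner, at 399 and 572 CPM. Lims1, which encodes the adapter PINCH1, stood at 117 and 59.1 CPM (log2 ratio 0.87), and Rasgrp2, an activator of Rap1, at 14.1 and 34.0 CPM (-0.87). In conventional CD4 T cells 1 of 19 was at least 2-fold lower, Rasgrp2 at 18.7 and 47.6 CPM (-1.01), and in microglia 0 of 21 reached 2-fold, with Parvb nearest (-0.99). NK cells had Lims1 higher (1.25) and Pxn, which encodes paxillin, lower (-1.08) of 16, and plasma cells Lims1 higher (1.09) of 20.

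Of the genes of exit from tissue, 0 of 7 measured in CD8 T cells and 0 of 7 in conventional CD4 T cells were at least 2-fold different. Cd69, whose product draws S1PR1 into the cell, stood at 243.5 and 137 CPM (log2 ratio 0.78), Klf2, a factor that drives S1pr1, at 94.9 and 113 CPM (-0.23), and Grk2, a kinase of the receptor, at 64.4 and 123 CPM (-0.84). NK cells had Cd69 higher (1.15) of 4 and plasma cells Klf2 higher (1.42) of 5. In regulatory T cells Grk2 was the 1 lower gene of 6, at 66.4 and 150.0 CPM (-1.07). Microglia had 1 of 7 lower: Sphk1, which makes sphingosine 1-phosphate, had 0 UMIs with vancomycin, where 3 UMIs are the limit, and 72 in the control. Klf2 stood at 1877 and 952 CPM there (0.97) and at 501 and 1167 CPM in fibroblasts (-1.21).

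Ligands of the matrix were the list with the most 2-fold differences. In microglia 2 of 8 were higher: Spp1, which encodes osteopontin, at 76.9 and 15.7 CPM (1.76), and Fn1, the ligand of alpha 5 beta 1, at 19.2 and 3.31 CPM (1.14). In fibroblasts 1 of 17 was higher, Vtn, the vitronectin gene, at 439 and 87.3 CPM (2.21), and 2 were lower: Tnc, the tenascin C gene, at 16.7 and 70.9 CPM (-1.60), and Thbs1, the thrombospondin 1 gene, at 103 and 329 CPM (-1.58), the latter named after its values were seen. Vtn is also one of the 8 mural cell markers, which with Vtn summed to 466 CPM (4 with a UMI) and 115 CPM (6 with a UMI) in these fibroblasts; their part in the result was not tested. In CD8 T cells 1 of 6 was lower, Cdh1, the E-cadherin gene, at 18.4 and 49.5 CPM (-1.07), and in conventional CD4 T cells 2 of 4 were higher, Spp1 at 41.5 and 3.15 CPM (1.97) and Tnc at 59 and 0 UMIs. Selectin ligand genes had 0 at least 2-fold different in any of the 7 types, with Spn, which encodes CD43, nearest in CD8 T cells at 56.2 and 121 CPM (-0.99).

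The ratio of a gene varied with its genomic span, and the libraries were counted with different versions of Cell Ranger. In CD8 T cells 7.21% of the 1138 genes over 100 kb were at least 2-fold higher with vancomycin and 0.351% lower, beside 1.40% and 1.13% of the 3003 genes of 30 to 100 kb. Alcam spans 205 kb and Itgb8 80.8 kb, while S1pr1 spans 4.64 kb, a class (under 10 kb) of which 3.82% were higher and 2.39% lower. Less the median of genes of like span, the CD8 log2 ratios were 1.55 for Alcam, 1.18 for Itgb8 and -2.01 for S1pr1. The medians of these classes were only 0.09 (over 100 kb), -0.11 (30 to 100 kb) and 0.11 (under 10 kb). Subtracting them could move a ratio little and does not address the share of long genes past 2-fold, so it cannot decide whether span had a part. Itgb5 (120 kb) and Itga1 (149 kb), also over 100 kb, were at 0.05 and -0.68 in the same cells. Whether span had a part in a member's ratio was not tested.

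**Figure D5:**
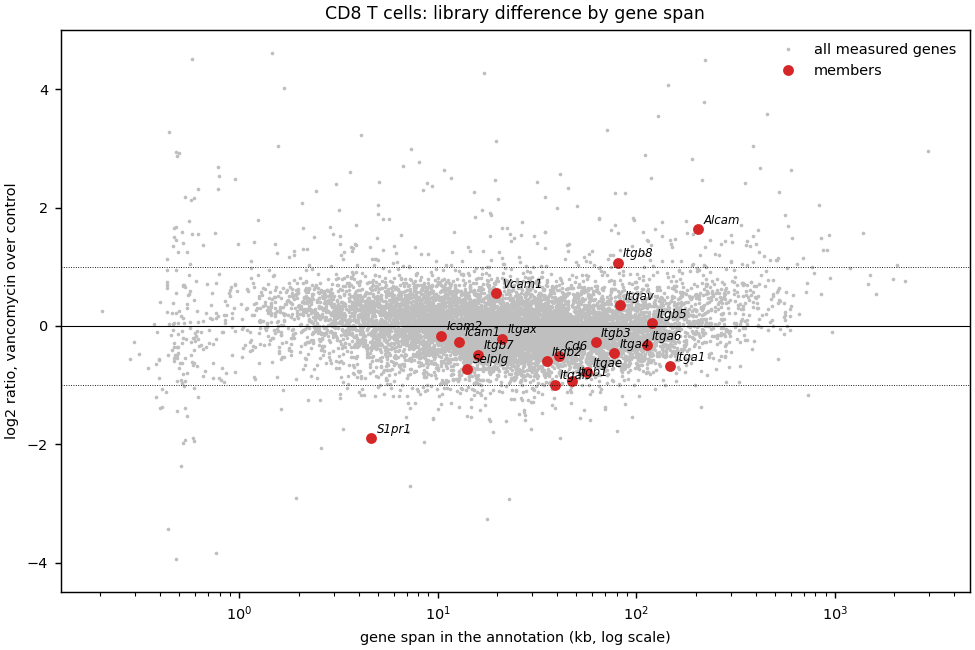
Log2 ratio of vancomycin over control in CD8 T cells against the span of the gene in kb (log axis), for 10069 measured genes in grey (4 of them above the axis) and the 20 measured members in red, with dotted lines at 2-fold. Alcam and Itgb8 lie above the upper line and S1pr1 below the lower one, and most other members lie between -1 and 0.

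The genes most like 4 of the members in their pattern over 25 points (types by library with at least 50 cells, which share libraries, depth and free RNA) were named by Pearson's r of log2(CPM + 10), as a description. They were Pitpnm2 (0.82), Oip5os1 (0.79) and Utrn (0.79) for S1pr1, and Abtb2 (0.70), Ext1 (0.69) and Lrrk2 (0.68) for Alcam. For Vcam1 they were Sncaip (0.90), Gas6 (0.90) and Retsat (0.86), and for Itgae Phf11c (0.86), Melk (0.84) and Ccr9 (0.83).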

How the data were processed

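The authors deposited 1 matrix of raw UMI counts per gene and barcode for each library, counted with Cell Ranger 7.2.0 (vancomycin) and 6.0.1 (control), per the file headers, on mm10, per the submitters' processing notes, which also name Partek. The counting of intronic reads and the calling of cells are not given in the sources used here. Kept barcodes had 500 or more UMIs, 200 or more genes and no more than 20% mitochondrial UMIs. Cells were put into types by 25 marker gates; the number of markers each gate needs, the order of gates and the delta chain asked of gamma-delta T cells were set after cell numbers and leading genes had been seen. Doublets were not removed in the main values; a doublet score above 0.2 marked 3.25% and 1.27% of cells, and leaving these out was an alternative.

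Counts were summed per type and library and scaled to CPM. Poisson intervals were used for levels, conditional Poisson intervals for ratios and Clopper-Pearson intervals for shares, all at 95%. Members with at least 50 UMIs over both libraries in a type were measured. As each group is a single library, no test was run and no replicate spread is known. A difference may belong to the libraries as much as to the treatment, since these cannot be told apart. Shares of cells with a UMI were also taken after thinning to 1000 UMIs.

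The members and lists were chosen with earlier results of these data known. All members were named; of each pathway list (84 of 85 genes found), the 2 genes with the highest level and the 2 with the largest log2 ratio in a type were named where described. Positions came from GENCODE M21 on GRCm38, which held 32235 of 32285 gene IDs (99.85%). Overlapping genes may share reads. The scripts were tested on simulated data. Alternatives were other pseudocounts (1 and 50 CPM), TMM factors (edgeR 4.0.16) and DESeq2 1.42.0 size factors, used for scaling only, equal weight for every cell, thinning, subtraction of the other types' median, no count filter, 1 more marker per gate, no mitochondrial limit, and, chosen after seeing the data, subtraction of the median of genes of like span. Python 3.11.15, scanpy 1.11.5, scipy 1.17.1 and R 4.3.3 were used. The result of 1 list is not reported here.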

Additional observations from a re-analysis of the deposited data

How the results depend on the processing

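Of the 103 log2 ratios, all kept their sign with 1 or 50 CPM added, with no count filter and with no mitochondrial limit, 101 with TMM or DESeq2 scaling, 93 with every cell weighted equally, 82 after thinning to 1000 UMIs and 97 less the median of genes of like span. Of the 13 at least 2-fold different, 3 remained with 50 CPM added, 7 after thinning, 11 with equal weights and 11 less the span median. The span medians were small (in CD8 T cells from -0.11 to 0.11), so subtracting them could move a ratio little. Less the median of the other compared types, which for each T cell type includes the other T cells, 65 of 99 signs and 4 of 12 differences remained, and S1pr1 in regulatory T cells reversed to 0.067. TMM and size factors moved plasma cells by -0.24 and -0.25 on the log2 scale.

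In CD8 T cells the members at least 2-fold higher numbered 0 with 50 CPM added, 1 with equal weights, 1 after thinning and 1 less the other types' median; those lower numbered 2 with 1 CPM, 0 with 50 CPM, 2 with equal weights, 2 after thinning and 0 less the other types' median. In conventional CD4 T cells they numbered 0 higher with 50 CPM, 1 with equal weights, 0 after thinning and 1 less the other types' median, and 1 lower with 50 CPM and 0 less the other types' median. In regulatory T cells 0 were lower with 50 CPM, after thinning or less the other types' median, and 1 less the span median. In NK cells 1 was higher with no filter (Itgae), and 0 were lower with 50 CPM, less the other types' median or less the span median, 3 with equal weights, 2 after thinning and 2 with no filter. In plasma cells 2 were higher with 1 CPM, 2 after thinning and 1 less the other types' median. In microglia Itgal made 1 higher with 1 CPM, with 1 more marker or less the span median, and 2 were higher less the other types' median; 1 was lower with 50 CPM (Itga5). In fibroblasts 1 was higher less the other types' median, and 3 were lower after thinning, 2 less the other types' median and 3 with no filter. With 1 more marker per gate the Itga4 share with vancomycin was 30.2% in NK cells and 62.1% in plasma cells. The cause of these changes was not tested.

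No paired analysis was possible because each group has 1 library, so leaving out a replicate was not run. Intervals cover counting error only, and levels of a few CPM in the smaller control types rest on few UMIs.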
